A study of Mus musculus with 2 samples.

Results

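The Class I olfactory receptor (OR) cluster of mouse chromosome 7 was described through the chromatin boundaries that divide it in mature olfactory sensory neurons. Its members were the genes whose names start with Olfr in GENCODE mouse release 21 on chromosome 7 between 102.477 and 105.369 Mb (GRCm38), from Olfr543 to Olfr692, pseudogenes included. They numbered 156 of 1407 Olfr genes in the genome, of which 129 were protein-coding and 27 were not. The span of 2.89 Mb held 8 boundaries of the 8058 in the deposited list, and 13 when 1 Mb on each side was added, 3 in the left flank and 2 in the right. Members were chosen by name and position, a rule that does not use boundary strength, though earlier results of these data were known when the cluster was picked.

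The study made in situ Hi-C, which joins and sequences DNA ends lying close together in the nucleus, from 2 samples of 1 group. Both held mature neurons sorted from the olfactory epithelium of adult OMP-GFP mice, strain 129P2/OlaHsd, of mixed sex, with no modification and no treatment per the labels. OMP, olfactory marker protein, marks mature neurons, and each neuron uses 1 receptor, so the map averages over cells that use different receptors. The samples held 3000000 and 1500000 cells and were pooled into 1 contact map before boundaries were called. No value below therefore has a spread between replicates, no test was made, and contact depth is unknown here.

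Class I receptors resemble the olfactory receptors of fish, and those with known ligands mostly answer to hydrophilic odorants such as organic acids. In mice their genes stand together on chromosome 7, around the beta-globin genes, while the far more numerous Class II receptors are spread over many chromosomes. A boundary is a border between neighbouring contact domains, across which contacts are scarcer than within the domain on either side. Many boundaries in mammals form where the protein CTCF halts the loops drawn by cohesin. A long-range enhancer of Class I genes, the J element, has been described, but its position was not used here.

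Sequences that bear on the boundaries are shown first. The core of the CTCF binding consensus was searched on both strands, and it matched at 3 places in the span. The first lies on the minus strand at chr7:102636908-102636921, the second on the minus strand at chr7:102734653-102734666 and the last on the plus strand at chr7:103793094-103793107. One more match, on the minus strand at chr7:105515373-105515386, lies beyond the last receptor gene inside the interval of the first boundary of the right flank. Capitals mark the core and lower case the 20 bases on each side, from RefSeq's GRCm38.p6.
first match in the span: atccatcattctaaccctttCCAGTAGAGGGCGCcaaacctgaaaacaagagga
second match in the span: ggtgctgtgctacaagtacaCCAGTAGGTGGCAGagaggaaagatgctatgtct
last match in the span: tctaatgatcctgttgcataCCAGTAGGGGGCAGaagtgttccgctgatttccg
match at the right-flank boundary: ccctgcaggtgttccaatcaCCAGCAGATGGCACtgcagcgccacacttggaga
The last match in the span starts the core CTCF binding site that RefSeq annotates at hypersensitive site 3′HS1 of the beta-globin locus. RefSeq annotates CTCF sites at HS-62.5, chr7:103913173-103913200, and HS-85.5, chr7:103942936-103942963, as well, and these hold no exact core match, so they carry no capitals.
HS-62.5: taccccttccccctggtggctacactag
HS-85.5: ctctgctgccctctcctggtcacatctg

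The promoter of Hbb-bs, an adult beta-globin gene, is shown because it lies wholly inside a boundary interval. It runs from 250 bases before to 50 bases after the GENCODE start, on the gene's own minus strand, at chr7:103828047-103828346. The homeodomain core TAATTA does not occur in it, so it carries no capitals.
Hbb-bs: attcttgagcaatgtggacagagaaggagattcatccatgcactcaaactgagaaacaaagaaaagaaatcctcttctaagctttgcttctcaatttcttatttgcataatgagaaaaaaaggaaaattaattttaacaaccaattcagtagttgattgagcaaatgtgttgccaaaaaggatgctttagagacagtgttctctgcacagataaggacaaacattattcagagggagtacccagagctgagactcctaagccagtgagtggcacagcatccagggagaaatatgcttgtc

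The name of the cluster was checked against the receptor families. RefSeq lists a single MOR family, a group of related mouse receptors, for 147 of the 156 members. Of these, 144 carry numbers from 1 to 42, the range that this naming system uses for Class I. The other 3 are pseudogenes of family 0, which has 5 genes in other OR clusters as well. Of the 9 members left out, 3 are listed under several families, among them Olfr605 under 24 and 202 and Olfr626-ps1 under 4 and 177. Another 2, Olfr652 and Olfr681, have a MOR name without a family part, and 4 have none. In the other OR clusters, 7 of 1096 genes with a family carried a number under 100, the 5 of family 0 included. Members of the cluster stood on both strands, 79 on the plus and 77 on the minus strand. The 27 members without a coding label were 18 unprocessed, 7 polymorphic and 2 transcribed unprocessed pseudogenes.

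Of the 8 boundaries in the cluster, 3 were Strong and 5 Weak, the authors' classes above and below a strength of 0.5. Strength is the authors' score and has no stated scale, so it serves here only to rank boundaries within the list. The Strong share of the cluster was 37.5% (exact Clopper-Pearson 95% interval 8.52 to 75.5%, counting error only), against 50.8% of the whole list and 40.8% of the 98 boundaries in other OR clusters. The median strength was 0.372 in the cluster and 0.509 in the list. With 8 boundaries, the interval takes in both other shares.

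**Figure D1:**
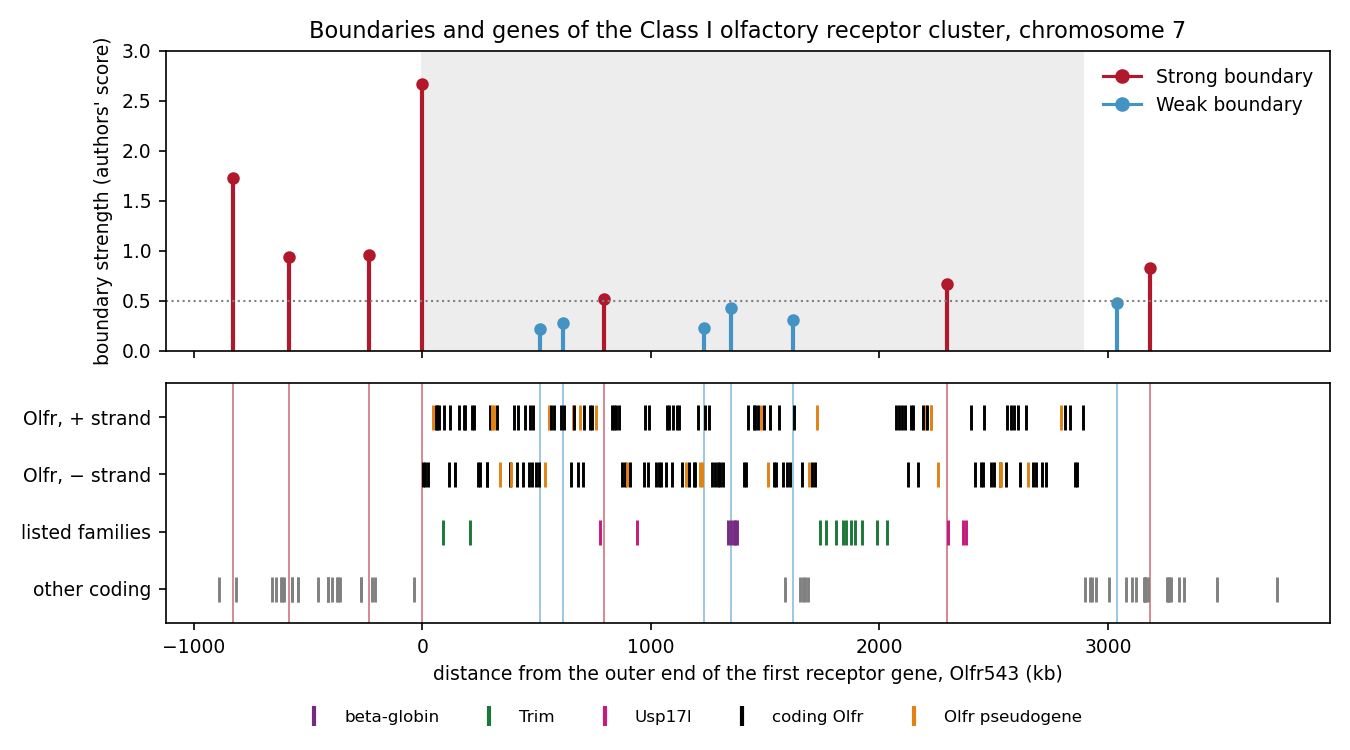
Boundaries (upper panel, height is the authors' strength score, grey band is the receptor cluster, dotted line is the class limit of 0.5) and genes (lower panel, gene starts) along the cluster and 1 Mb each side, in kb from the outer end of Olfr543. The tallest boundary, 2.67, stands at the first receptor gene, and the 7 boundaries further in reach at most 0.669.

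The strongest boundary of the cluster stands at its first gene. At chr7:102475001-102480000 a Strong boundary had a strength of 2.67, rank 44 of 8058 in the list and 6 of 437 on chromosome 7. Its 5 kb interval holds the coding exon of Olfr543, whose annotated start lies 5 kb away. The nearest other coding start, 35 kb away in the outward direction, belongs to Rrm1, the large subunit of ribonucleotide reductase. Among the nearest boundaries to the 78 outer edges of all 39 OR clusters, its strength ranked 4. The 3 receptor genes on its inner side, Olfr543, Olfr544 and Olfr545, start 5, 10 and 20 kb from it and form the whole MOR42 family of the cluster. Olfr544 is known as a receptor for azelaic acid.

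The other end of the cluster had no boundary at its last gene. Olfr692, the last member, lies 150 kb from the next boundary, a Weak one of strength 0.477 at chr7:105515001-105520000. That interval is intergenic, and the nearest other coding start, 35 kb away, is that of Cavin3, a coat protein of caveolae. The interval that holds the CTCF core match shown above is this one. The boundaries on either side of the cluster thus differed in strength, 2.67 and 0.477, a difference that was not tested.

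The 7 boundaries further inside ranged in strength from 0.223 to 0.669, with a median of 0.312, and 2 of them were Strong. At chr7:102990001-102995000 a Weak boundary of 0.223 lay in intergenic sequence, 5 kb from the start of Olfr578 and 260 kb from the nearest other coding start, that of Usp17ld. At chr7:103090001-103095000 another Weak boundary, of 0.277, lay 5 kb from the start of Olfr585, again intergenic and 160 kb from Usp17ld. The first Strong boundary inside, 0.517 at chr7:103270001-103275000, lay over the small RNA gene Gm23973, 20 kb from the start of Usp17ld and 35 kb from that of Olfr596. These 3 cut the receptor genes into runs of unequal size.

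Further along, a Weak boundary of 0.228 at chr7:103705001-103710000 lay 5 kb from the starts of both Olfr260-ps1 and Olfr243, and 105 kb from Hbb-bt. The Weak boundary of 0.431 at chr7:103825001-103830000 held the whole of Hbb-bs, its start included, and lay 35 kb from Olfr67. The Weak boundary of 0.312 at chr7:104095001-104100000 lay 5 kb from the start of Olfr646 and 30 kb from that of Ubqln5, inside an intron of the long GENCODE record of Olfr643. The last, a Strong one of 0.669 at chr7:104770001-104775000, held a coding exon of Usp17le, whose start lay 5 kb away, while the nearest receptor start, that of Olfr664, lay 40 kb away. Ranks of these 7 in the whole list ran from 3087 for the strength of 0.669 to 7497 for that of 0.223.

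The 3 strongest of the inner boundaries lay where the run of receptor genes is broken by other genes. Between adjacent receptor starts there were 155 stretches with a median of 13.3 kb, and 6 of them reached 50 kb. The boundary of 0.669 lay in the stretch of 143.7 kb between Olfr664 and Olfr665, which holds Usp17le, Usp17lb and Usp17la. The boundary of 0.431 lay in the stretch of 94.4 kb between Olfr67 and Olfr66, which holds the 5 beta-globin genes. The boundary of 0.517 lay in the stretch of 70.0 kb between Olfr595-ps1 and Olfr596, which holds Usp17ld. The other 4 inner boundaries, of 0.223 to 0.312, lay in stretches of 13.9 to 25.2 kb with no other coding start.

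Breaks of the receptor run did not all hold a boundary. The widest, 346.7 kb between Olfr650-ps1 and Olfr651, holds 10 Trim genes and no boundary. Stretches of 65.4 kb between Olfr686 and Olfr687 and of 59.3 kb between Olfr603 and Olfr605 held none either. The 6 wide stretches make up 27.0% of the distance from the first to the last receptor start and held 3 of the 7 inner boundaries. Of the 10 stretches with other coding starts, 3 held a boundary, against 4 of the 145 stretches without, though the 10 cover 29.4% of that distance. This relation was seen in the data first, and it was not tested.

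The boundaries divided the cluster into 8 subdomains, numbered from the Olfr543 end. Their lengths, from the centre of one boundary to the centre of the next, were 515, 100, 180, 435, 120, 270, 675 and 745 kb. The median was 352.5 kb in the cluster, against 260 kb for the 8038 spacings of the whole list (quartiles 180 and 380 kb). Of the 8 subdomains 4 were 400 kb long or more, while 22.7% of all spacings reached that length. These 4 held 116 of the 156 members. Long intervals hold more sequence, and these 4 make up most of the summed length of the 8 subdomains. The count therefore cannot be read as a gathering of receptors in long intervals. For other genes the share in such intervals was not computed. The next spacing outward at the Olfr692 end was 145 kb and the next at the Olfr543 end 235 kb.

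**Figure D2:**
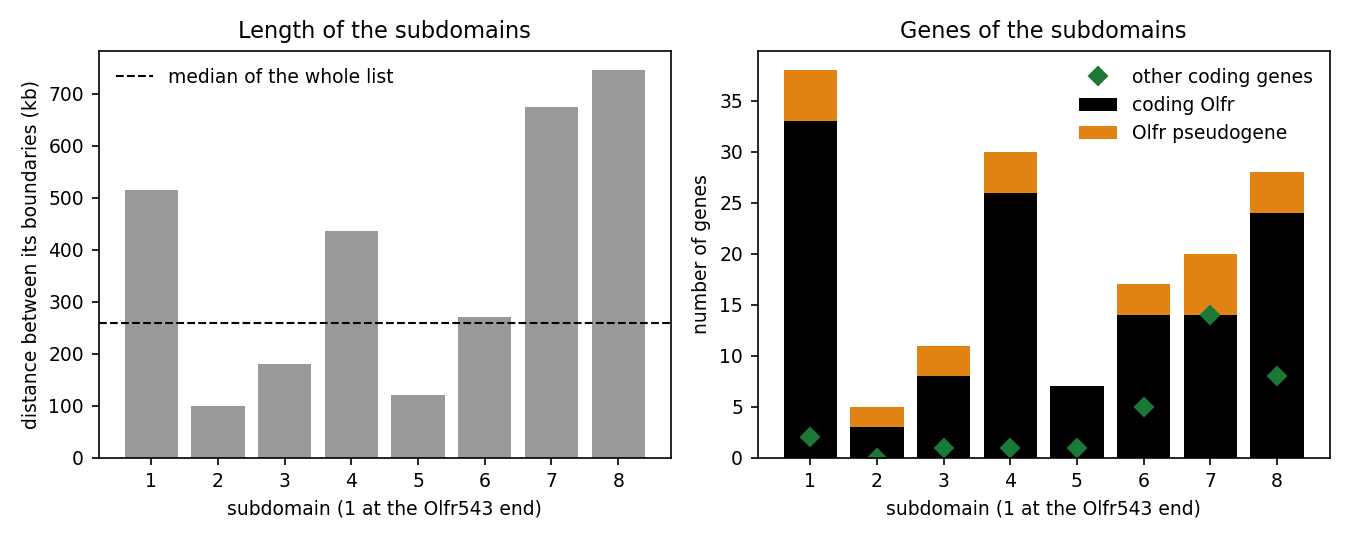
Length of the 8 subdomains in kb (left, dashed line is the median of 260 kb over the whole list) and the number of their genes (right, stacked bars are coding and noncoding receptor genes, diamonds are other coding genes). Subdomains 7 and 8 are the longest, with 20 and 28 receptor genes, fewer than the 38 of subdomain 1.

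Subdomain 1, from Olfr543 to Olfr578, held most receptor genes, 38 in 16 families, at 73.8 genes per Mb, with Trim21 and Trim68 the only other coding genes. The shortest, subdomain 2, held 5 genes from Olfr580-ps1 to Olfr584 and no other coding gene. Subdomain 3 held 11 receptor genes from Olfr585 to Olfr595-ps1 and Usp17ld. A longer run followed in subdomain 4, with 30 genes from Olfr596 to Olfr260-ps1 in 14 families and Usp17lc. These first 4 subdomains were dense in receptors, at 50 to 73.8 genes per Mb.

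Subdomain 5 held 7 receptor genes, all coding, from Olfr243 to Olfr67, and the adult beta-globin gene Hbb-bt. From Olfr66 to Olfr645, subdomain 6 held 17 receptor genes with the other beta-globin genes, whose starts lie beyond the centre of the 0.431 boundary. Subdomain 7 held 20 receptor genes from Olfr646 to Olfr664 beside 14 other coding genes, 10 of them Trim genes. Subdomain 8 held 28 receptor genes from Olfr665 to Olfr692 and 8 other coding genes, in part beyond the last receptor. Receptor density was lowest in the last subdomains, at 29.6 genes per Mb in subdomain 7 and 37.6 in subdomain 8. The length of subdomain 8 includes the 150 kb from Olfr692 to the next boundary, where no member can lie, which lowers its value.

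Sequence composition varied over the subdomains. The share of G and C bases ran from 37.6% in subdomain 5 to 40.8% in subdomain 7, and was 39.4% over the span against 41.8% over chromosomes 1 to 19 and X. Soft-masked repeats made up 34.1% of subdomain 1, 35.6% of subdomain 6 and 53.5% of subdomain 2, and 43.0% of the span against 34.3% of the genome. Sites of DpnII, the enzyme that cut the chromatin, numbered 2.80 per kb in the span and 2.51 per kb in the genome, with the lowest value, 2.42, in subdomain 6. The span held 0 undetermined bases. Whether repeats or cutting sites play a part in where boundaries were called was not tested.

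Few receptor genes start near a boundary. Of the 156 members 13 did so within 20 kb (8.33%, exact 95% interval 4.51 to 13.8%), against 12.3% of 1251 Olfr genes elsewhere and 21.2% of 21755 protein-coding genes. The interval takes in the share of other Olfr genes but not that of coding genes. Members share their boundaries, so they are not independent, and the interval covers counting error only. The median distance of a member to its nearest boundary was 102.5 kb, with a range from 5 to 370 kb. It was 90 kb for other Olfr genes and 60 kb for coding genes.

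Beside Olfr543, Olfr544 and Olfr545, which stand at the Strong outer boundary, the 10 others stood at Weak ones. Olfr578, Olfr585, Olfr260-ps1, Olfr243 and Olfr646 started 5 kb from their boundary, and Olfr584 and Olfr645 10 kb from it. Olfr577 and Olfr626-ps1 lay at 15 kb and Olfr580-ps1 at 20 kb. The 3 members just past the limit, Olfr625-ps1, Olfr628 and Olfr644, lay at 25 kb. No member started inside a boundary interval, and none lay within 20 kb of the Strong boundaries of 0.517 and 0.669. Starts inside an interval were rare elsewhere too: a distance of 0 kb reached percentile 1 of other Olfr genes and percentile 3 of coding genes. The farthest members stood in the middle of subdomain 8, Olfr683 at 370 kb, and 30 members lay over 200 kb from any boundary. Other Olfr genes were much alike in this: percentile 81 of the distance was 203 kb for members and 200 kb for other Olfr genes. For coding genes percentile 92 was 205 kb.

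**Figure D3:**
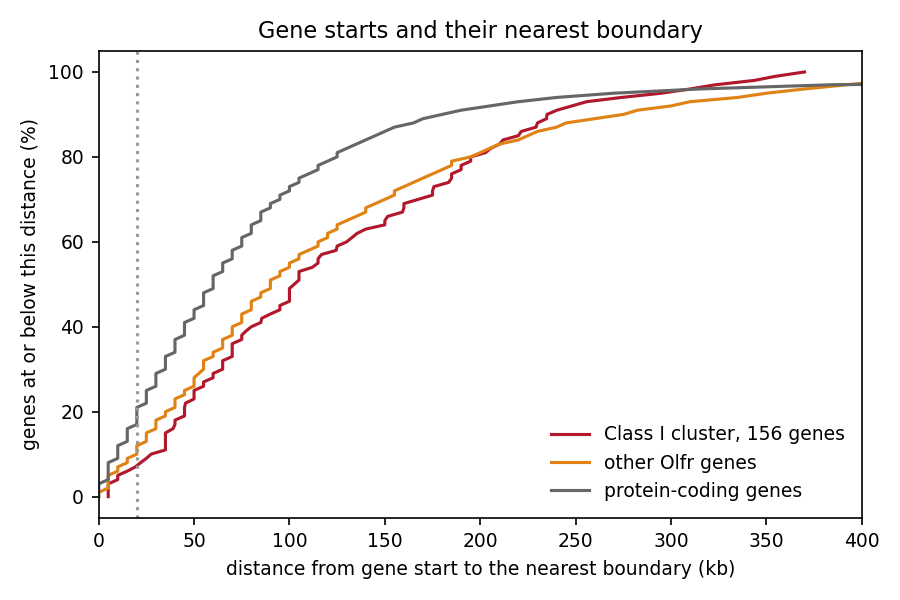
Cumulative share of genes (%) by the distance from their start to the nearest boundary in kb, for the 156 members, the other Olfr genes and all protein-coding genes. The dotted line marks 20 kb, and the counted shares within it are 8.33% of members, 12.3% of other Olfr genes and 21.2% of coding genes. Curves are drawn through interpolated percentiles and can differ slightly from these counts.

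Genes of other families in the span were grouped by family, and 3 families are given here. Of all protein-coding genes 21.2% start within 20 kb of a boundary. The beta-globin genes, which encode a subunit of haemoglobin, stood closest, 4 of 5 within 20 kb. Hbb-bs lay in the boundary interval, Hbb-bt, Hbb-bh2 and Hbb-bh1 started 15 kb from it and the embryonic Hbb-y 25 kb from it. All of these refer to the same Weak boundary of 0.431. Of the Usp17l genes, which encode deubiquitinating enzymes, 2 of 5 lay within 20 kb, Usp17le at 5 and Usp17ld at 20 kb, with Usp17lb, Usp17la and Usp17lc at 70, 85 and 145 kb.

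Trim genes, several of which restrict viruses, lay farthest away, with 0 of 12 within 20 kb, distances of 90 to 305 kb and a median of 225 kb. Of these, 10 stand together between Olfr650-ps1 and Olfr651, so their distances are not independent. Altogether 6 of the 27 other coding genes in the span started within 20 kb, against 5 of 24 in the left and 4 of 21 in the right flank. These counts lie near the 21.2% of all protein-coding genes. In the flanks, Stim1, a calcium sensor of the endoplasmic reticulum, lay 25 kb from the boundary of 0.955. Dchs1, a large cadherin, lay 125 kb from that of 0.824. Cnga4, a subunit of the cyclic nucleotide-gated channel that carries the odour response, started 115 kb from the Weak boundary of 0.477, in subdomain 8 with the last receptors.

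The boundary at the beta-globin genes has the most annotation around it. RefSeq lists 62 records of functional elements in the span, nested and overlapping ones included, 8 of them labelled biological regions. All 62 lie within chr7:103792900-103943348, around the globin genes. The boundary interval overlaps the 3′ enhancer of the beta1-globin gene, chr7:103824261-103825260. On its left, 35 kb away in subdomain 5, is 3′HS1 with the last CTCF match of the span. On its right, in subdomain 6, are the locus control region at chr7:103857890-103877545, which starts 27.9 kb from the end of the interval, and the CTCF sites of 5′HS5, HS-62.5 and HS-85.5 at 45, 85 and 115 kb. The globin genes are red-cell genes, and this map is of neurons, in which their use was not measured.

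Flanking boundaries were stronger than most inside. In the left flank, a Strong boundary of 1.72 at chr7:101645001-101650000 lay 15 kb from Clpb, a mitochondrial disaggregase. The Strong boundary of 0.941 at chr7:101890001-101895000 lay in an intron of Anapc15 and 15 kb from Lamtor1, and that of 0.955 at chr7:102240001-102245000 over an exon of Rhog. In the right flank, the Strong boundary of 0.824 at chr7:105660001-105665000 lay in an intron of Dnhd1, 10 kb from its start. Of the 5 flanking boundaries 4 were Strong.

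Exact CTCF core matches in the cluster were set beside those of the flanks and the whole list. None of the cluster's 8 boundaries had an exact match within 20 kb, against 2 of the 5 in the flanks and 21.9% of the whole list. With 8 boundaries this count is too small to set the cluster apart, and the difference was not tested. The 3 matches in the span came to 1.04 per Mb, while the flanks held 4, or 2.0 per Mb, and the genome 2.56 per Mb. The first and second match of the span lay 160 and 255 kb from the 2.67 boundary, and the last 35 kb from the 0.431 boundary. The exact core is a narrow definition, and the CTCF sites that RefSeq annotates at 5′HS5, HS-62.5 and HS-85.5 hold no exact match. With 1 mismatch allowed, 5 of the 8 boundaries had a match within 20 kb, against 76.3% of the list. A match is a stretch of letters in the reference and says nothing of whether CTCF binds it in these neurons.

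Some receptor families lay within a single subdomain and others did not, and whether boundaries play a part in this was not tested. Of the 43 families, 29 had more than 1 member in the cluster. Of these, 14 families with 39 members lay in 1 subdomain and 15 families with 94 members in more than 1. MOR22 stood wholly in subdomain 5, as Olfr243, Olfr628, Olfr69 and Olfr68, and MOR12 with 5 members wholly in subdomain 6. MOR31, with 14 members, was found in 5 subdomains, and MOR32, with 12, in 3. MOR34 ran across the Strong boundary of 0.669, with Olfr664 on one side and Olfr665 on the other.

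**Figure D4:**
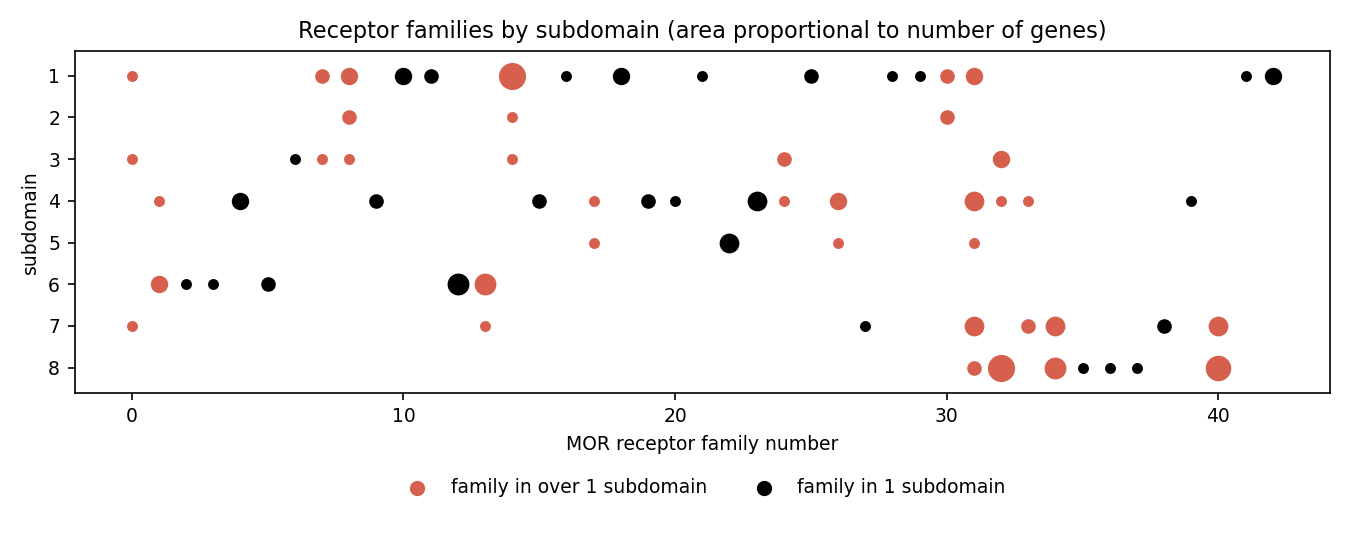
Receptor families (MOR family number, horizontal) in the 8 subdomains (vertical), with the area of a point proportional to the number of genes. Families in over 1 subdomain, 15 in all, are set apart by colour from families in 1 subdomain.

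MOR14 had 10 members, in subdomains 1 to 3, and MOR40 had 11, in subdomains 7 and 8. MOR13 counts as split only through Olfr643, whose GENCODE record runs over chr7:103998800-104137405 across a boundary. RefSeq places that gene at chr7:104058656-104059600, in subdomain 6 with the other 5. Members on the 2 sides of a boundary were of the same family in 1 of 6 adjacent pairs with known families, against 54 of 131 adjacent pairs (41.2%) within a subdomain. The pair across a boundary that was left out is Olfr595-ps1, of MOR32, with Olfr596, which has no MOR name. The protein of Olfr596 shares 98.7% of residues with that of Olfr603, of MOR32, so the count of 1 rests in part on a missing name. Pairs across a boundary also stood farther apart, a median of 25.2 kb between starts against 13.0 kb.

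Orientation was compared over the same adjacent pairs. Across boundaries, 4 of 7 pairs stood on the same strand (57.1%), against 88 of 148 within subdomains (59.5%). The other 3 pairs across a boundary, Olfr260-ps1 with Olfr243, Olfr645 with Olfr646 and Olfr664 with Olfr665, were divergent, and 0 were convergent. Within subdomains 29 pairs were divergent and 31 convergent. These counts are too few for a reading of orientation at boundaries.

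Similarity of the encoded proteins was computed from the coding sequences of the reference for 128 of the 129 coding members, of 297 to 346 residues (median 317). Adjacent coding members across a boundary shared a median of 47.5% of residues, with a range from 37.3% for Olfr661 and Olfr665 to 74.0% for Olfr594 and Olfr596, in 7 pairs. Adjacent members within a subdomain shared a median of 54.1%, from 35.7% to 98.1%, in 120 pairs. The highest value was that of Olfr611 and Olfr612 in subdomain 4. The ranges overlap widely, and no test was made.

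Close relatives mostly shared a subdomain, and they also stood close together. The most similar member lay in the same subdomain for 103 of 128 (80.5%), at a median identity of 83.7% and a median distance of 27.5 kb. For the other 25 it lay in another subdomain, at medians of 68.6% and 308.3 kb. Of all pairs 16.6% share a subdomain, but of the 303 pairs with starts at most 50 kb apart 97.0% do, so nearness along the chromosome and subdomain cannot be told apart here. For 12 members the most similar member lay over 500 kb away, among them Olfr692, whose closest relative Olfr569 is 2477 kb away in subdomain 1 at 54.5% identity.

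Letters of the promoters were searched on both strands for CCCNNGGG, bound by EBF factors, and TAATTA, bound by homeodomain factors such as LHX2, both known in OR regulation. In RefSeq's promoter table, 109 members had an entry, of which 2.75% held CCCNNGGG, against 3.10% of other Olfr promoters and 13.7% of all promoters. TAATTA was held by 14.7% of members, 19.1% of other Olfr promoters and 5.29% of all promoters. The RefSeq start lay over 1 kb from the GENCODE start for 86 of the 109, with a median of 3014 bases. For some members, such as Olfr243 and Olfr578, the RefSeq record begins at the first coding base. Such windows hold the sequence before the coding exon and need not be promoters, so the RefSeq shares cannot be read as a lack or excess of sites in receptor promoters. At the GENCODE starts of the same 109 members, 16.5% held CCCNNGGG and 14.7% TAATTA. Over all coding members at GENCODE starts, 17.1% held CCCNNGGG, against 23 of the 115 other coding Olfr genes of chromosome 7 and 15.8% of its other coding genes. TAATTA stood at 15.5% of coding members there, against 23 of those 115 Olfr genes and 3.54% of the other coding genes.

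The cluster is the second largest of the 39 OR clusters, and 7 of them hold at least 50 genes. Its density of boundaries, 2.77 per Mb, was the middle value of the 7, which ran from 1.97 on chromosome 2 to 4.30 on chromosome 19. The Class II cluster further along chromosome 7, chr7:106675005-108894420, held 80 genes and 5 boundaries, 2.25 per Mb, of which 1 was Strong, with a median strength of 0.319. Its outer edges lay 35 and 30 kb from Strong boundaries of 1.28 and 1.05. The largest cluster, chr2:85330779-90403897, held 287 genes and 10 boundaries, of which 2 were Strong, with a median of 0.345. Both medians lie near the 0.372 of the Class I cluster, and the differences were not tested.

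**Figure D5:**
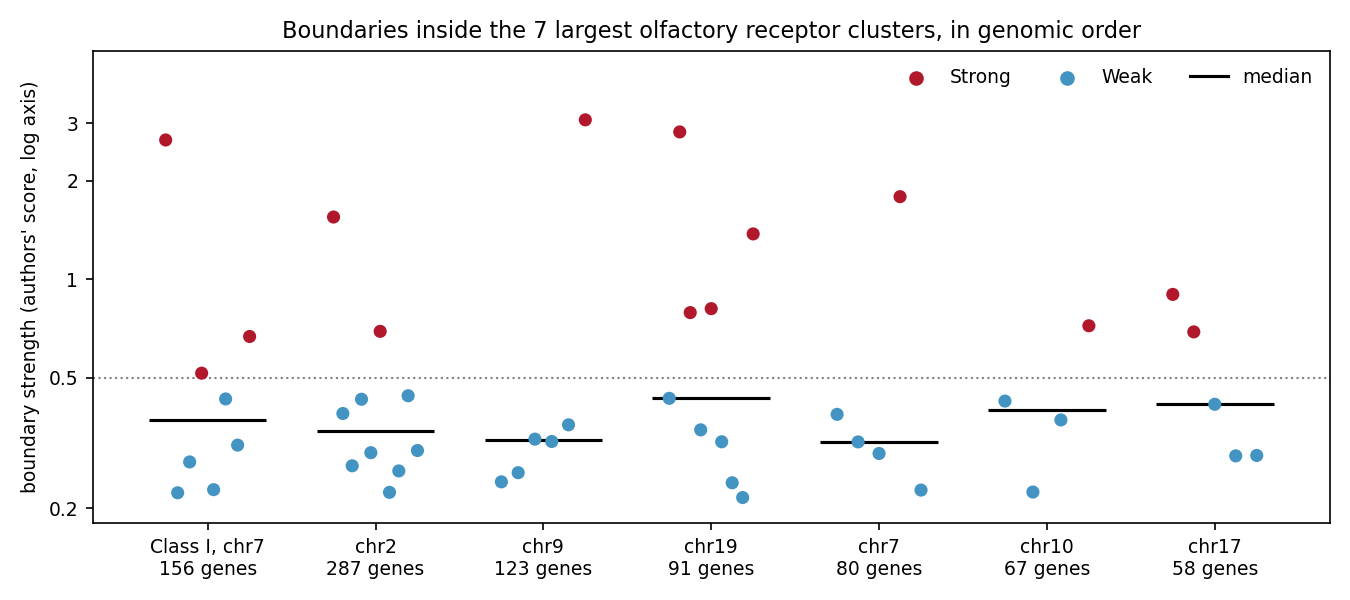
Strength of the boundaries inside the 7 largest OR clusters (authors' score, log axis), each in genomic order from left to right, with the Class I cluster first and a line at each median. The Class I cluster has its strongest boundary, 2.67, at the left end and a median of 0.372.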

How the data were processed

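In situ Hi-C of 2 biological replicates of 1 group was pooled by the authors into 1 contact matrix on GRCm38, on which they called boundaries, per the series design text. The deposited list gives 5 kb intervals, a class and a strength, a score without a stated scale, and the score is the authors' value throughout. Which program mapped the reads or called boundaries, and over which window, is not given in the sources used here. Contact matrices were not used here.

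Genes came from GENCODE mouse release 21, and sequence, MOR names, promoters and functional elements from RefSeq (GRCm38.p6). A gene's start was the 5′ end of its record, and distances were taken between 5 kb bins. An OR cluster was at least 3 Olfr genes with gaps of at most 1 Mb. For CTCF, the core consensus had to match in every base. Protein identity came from translated GENCODE coding sequences, aligned globally with Biopython 1.88, in percent of the shorter protein. It replaced a protein table and was chosen after seeing the data, as were the search at GENCODE starts and the account of stretches between receptor starts. Intervals are exact (scipy 1.17.1), and counting procedures were tested on simulated data.

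Members and lists were chosen with earlier results of these data known. Genes named were the first and last receptor of each subdomain, the nearest receptor and other coding gene of each boundary, receptors within 20 kb, the beta-globin, Trim and Usp17l lists and 4 flanking genes. Others were named after their values were seen, namely members just outside 20 kb, at the farthest distance, at the ends of a range and in the families and stretches described. Some planned items are not reported here. No p-value was computed, because 1 pooled list has no replicates. Alternatives were the Strong class or the top 25% alone, other windows, inner boundaries alone, coding members, gene bodies, RefSeq starts and other motif rules.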

Additional observations from a re-analysis of the deposited data

How the results depend on the processing

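Of 26 alternative values for 11 results, 16 differed from the reported value by less than 1.5 times and 10 by more. With Strong boundaries alone, the cluster had 3 boundaries in place of 8, a density of 1.04 per Mb in place of 2.77, 3 subdomains with receptor genes in place of 8 and 3 members within 20 kb in place of 13. With the top 25% of strengths, 1 boundary was left, the one at Olfr543. Within 50 kb, 40 members lay near a boundary. A distance of 50 kb was percentile 25 of members, 28 of other Olfr genes and 44 of coding genes. Exact CTCF core matches stood near 2 of the 13 boundaries of the span and flanks, near 1 within 10 kb, near 10 with 1 mismatch allowed (76.3% of the list) and near 0 for a rotated core (2.84% of the list). CCCNNGGG was held by 17.1% of coding members at GENCODE starts, against 2.75% of members in the RefSeq table, and the genes of that table gave 16.5% at GENCODE starts. The Strong share of the cluster was 28.6% and its median strength 0.312 with the inner boundaries alone. No paired analysis was possible because both replicates were pooled by the authors into 1 list, and for the same reason no replicate could be left out. Receptor genes resemble each other, which can make reads hard to place, and the effect on boundary calls was not tested. The reference differs from the strain used, which was not tested either.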
